A study of Mus musculus with 10 samples.

Results

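Interleukins and their receptors were examined in laser-dissected colon tumours of mice that lacked the Wnt co-factors Bcl9 and Bcl9l and of wild-type mice. The members were all genes whose symbol in the array annotation begins with Il and a digit, apart from Il1b, Il1rn, Il6 and Il11, which were left out. They came to 69 of 18193 genes, namely 30 ligands, 35 receptor chains, 2 soluble binding proteins (Il18bp and Il22ra2) and 2 genes of other kinds, the enzyme gene Il4i1 and the antisense transcript Il1bos. Each gene was read from the probe set with the highest mean over the 10 arrays. The mutant tumours (KO) came from vil-Cre-Bcl9-/-/Bcl9l-/- mice, in which the villin promoter drives Cre in intestinal epithelium, so stromal and immune cells of the tumour would keep both genes. Wild-type (WT) tumours and KO tumours shared the 129SvEv/C57BL/6/DBA/2 mixed background. All mice, at 6 to 8 weeks of age, had received dimethylhydrazine, a precursor of the colon carcinogen azoxymethane, at 44 mg/kg, followed by 7 days of 2% dextran sulfate sodium, which injures the colon and inflames it. There were 5 KO tumours, numbered 2 and 6 (mouse 02), 9 and 11 (mouse 04) and 7 (mouse 99), and 5 WT tumours, numbered 1, 3, 12 and 13 (mouse 72) and 8 (mouse 82). The labels speak of pooling dissected material of a mouse and also list several arrays for a mouse, and each array was taken as a separate tumour.

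Interleukins are secreted proteins by which immune, epithelial and stromal cells signal to each other, and they act through receptors built from a ligand-specific chain and a shared chain. The common gamma chain serves the receptors for IL-2, IL-4, IL-7, IL-9, IL-15 and IL-21, gp130 (Il6st) serves the IL-6 group, and the accessory protein encoded by Il1rap serves the receptors for IL-1, IL-33 and the IL-36 cytokines. In the colon, IL-18 and IL-33 come largely from epithelium and stroma, IL-22 and IL-17 act on the epithelium, and IL-23, made up of the products of Il23a and Il12b, sustains lymphocytes that make IL-17 and IL-22.

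The values are log2 signals made with RMA, a method that corrects background, equalises the distributions of the arrays and sums the probes of a set, and array medians lay between 6.43 and 6.50. Pairs of arrays correlated at 0.9498 to 0.991 over all probe sets. Of 5 probe sets for the targeted genes, 4 had the higher mean in KO tumours, and since the labels do not place them relative to the deletion they check nothing about the genotype. All 10 colon epithelial markers passed the level filter, and their mean lay between 11.75 and 12.04 in KO and between 10.92 and 12.35 in WT tumours. Where tumours share a mouse, p-values measure in part the spread within that mouse. In dissected tissue, more cells of a type and more RNA per cell cannot be told apart. Background detection was not assessed, so a low value is not a statement that a gene was silent.

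Among the interleukin genes, Il23a fell in KO tumours and was the only ligand gene past the threshold, whereas the receptor genes Il15ra and Il18r1 rose, as did Il18bp, and the receptor gene Il1rap fell. A gene entered the test if its mean signal was at least 5.82 log2, the 40th percentile of probe set means. This held for 29 of the 69 members, 6 of them ligands, 22 receptor chains and 1 a binding protein. Of the 29, 3 rose and 2 fell (limma with the mouse as a random block, Benjamini-Hochberg adjusted p under 0.05 over 12250 genes), which is 17.2%, beside 7.09% of all genes tested (4.16% higher and 2.93% lower in KO). At an unadjusted p under 0.05 there were 12 of the 29 members (41.4%), beside 22.4% of all genes tested. The 5 KO and 5 WT tumours did not overlap in 3 of the 29 (10.3%), Il23a, Il15ra and Il18r1, beside 9.12% of all genes tested. Ligands gave 1 call of 6 (16.7%) and receptor chains 3 of 22 (13.6%), with 2 and 9 members at an unadjusted p under 0.05. The median difference of the 29 was 0.28 log2, KO minus WT, beside 0.03 over all genes tested, and it was 0.42 for the 6 ligands and 0.19 for the 22 receptor chains. The other 40 members, which include 24 of the 30 ligands, lay below the filter. Fitted without it, 5 of the 40 (12.5%) had an unadjusted p under 0.05, beside 11.7% of all genes below the filter. The calls among the 69 in that fit were the same 5 genes, beside 5.40% of 18193 genes called. The median over all 69 in that fit was 0.06 log2, and over all genes 0.00. Because a gene can pass the filter through the group in which it is high, the shares among the 29 describe those genes and not the 69.

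**Figure D1:**
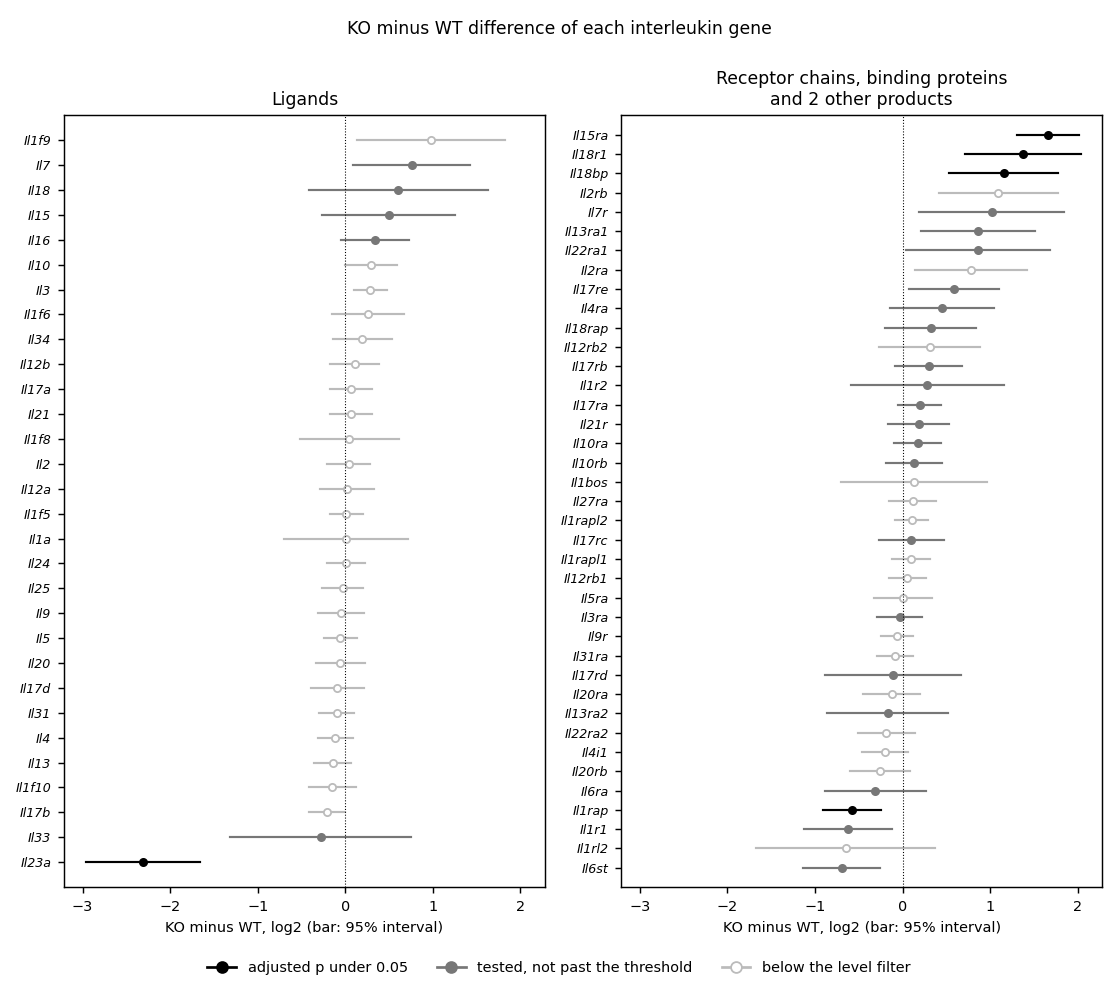
KO minus WT difference of each of the 69 interleukin genes on the log2 scale, ligands on the left and receptor chains, binding proteins and 2 other products on the right, with bars for the 95% interval of the limma fit. Black marks genes past the adjusted threshold, grey those tested and not past it, and open circles those below the level filter; Il23a lies at -2.31 on the left, and Il15ra at 1.66 and Il1rap at -0.57 on the right.

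Il23a encodes the p19 subunit that is found in IL-23 and not in IL-12. Its signal was 4.34 and 4.46 in KO tumours 2 and 6, 5.002 and 4.99 in tumours 9 and 11 and 5.18 in tumour 7. In WT tumours 1, 3, 12 and 13 it was 7.83, 6.57, 7.05 and 7.65, and in WT tumour 8 it was 6.56. Every KO tumour lay below every WT tumour, and the gap between the groups was wider than the range within either. The means were 4.79 ± 0.37 in KO and 7.13 ± 0.59 in WT tumours (n = 5 per group, SD), a difference of -2.31 ± 0.29 log2 (SE) and a 4.97-fold lower level (limma, adjusted p = 0.00151). The KO mean lies under the level filter, so the fold is not exact. The call held without any single tumour and over mouse means (difference -2.06, adjusted p = 0.0322). Mouse 72 supplied 4 of the 5 WT tumours, and with it left out the difference was -1.75 (adjusted p = 0.0510). The labels also number the samples, from 191 to 229 for KO tumour 7 and WT tumours 3, 8, 12 and 13 and from 254 to 258 for the rest. The difference was -1.79 (adjusted p = 0.226) in the former, called the low numbers here, and -3.14 (adjusted p = 0.00868) in the latter, the high numbers. These last 3 fits have a single tumour in 1 group, which is assumed to vary like the others. Most KO tumours had high numbers and most WT tumours low ones, so number and genotype cannot be fully told apart. In the fit of all tumours with the 2 blocks of numbers as a covariate, the difference was -2.43 (limma, adjusted p = 0.00692).

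The partners of Il23a analysed here did not enter the test, and none passed in the fit without the level filter. Il12b, the p40 subunit shared with IL-12, was at 5.66 ± 0.26 in KO and 5.55 ± 0.08 in WT tumours, and Il12a, the p35 subunit of IL-12, at 5.09 ± 0.28 and 5.08 ± 0.11 (SD, n = 5 per group). Their differences were 0.11 (95% interval -0.17 to 0.39) and 0.02 (-0.29 to 0.32) log2. Of the receptor chains, Il12rb1, shared by the receptors for both cytokines, was at 5.51 ± 0.06 and 5.46 ± 0.16, and Il12rb2, the second chain for IL-12, at 5.87 ± 0.61 and 5.56 ± 0.16. All 4 lay below the level filter, and Il23r was not analysed here. Of the cytokines downstream of IL-23, Il17a read 3.57 ± 0.14 in KO and 3.51 ± 0.17 in WT tumours. A probe set that the annotation assigns to both Iltifb and Il22 read 3.17 ± 0.40 and 3.06 ± 0.41. The values of Il17a and of this shared probe set are near the bottom of the array's range, and a difference at such a level may not be detectable.

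Il15ra encodes the chain that binds IL-15 with high affinity and presents it to neighbouring lymphocytes carrying Il2rb. It had the smallest p of the members. It read 8.00 and 8.15 in KO tumours 2 and 6, 8.52 and 8.15 in tumours 9 and 11, and 8.58 in tumour 7. The WT readings were 6.42, 6.78, 6.63 and 6.33 in tumours 1, 3, 12 and 13, and 6.90 in tumour 8. The lowest KO tumour stood more than 1 log2 unit above the highest WT tumour. Il15ra rose by 1.66 ± 0.16 log2 (SE), a 3.16-fold change (8.28 ± 0.26 against 6.61 ± 0.24, SD, n = 5 per group; limma, adjusted p = 0.000332). Its second probe set had a difference of 1.46 ± 0.22 (SE; limma over all probe sets, adjusted p = 0.00522). The rise held without any single tumour and over mouse means (1.61, adjusted p = 0.0219). It also held with the 2 blocks of numbers as a covariate (1.83, limma, adjusted p = 0.00109). It did not pass without mouse 72 (1.40, adjusted p = 0.0526), nor among the low numbers (1.93, adjusted p = 0.0703), while among the high numbers the difference was 1.78 (adjusted p = 0.0165).

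Neither the ligand gene Il15 nor Il2rb passed on the probe set used for the gene, and Il2rg, the common gamma chain, was not analysed here. Il15 itself read 6.22 ± 0.58 in KO and 5.67 ± 0.60 in WT tumours (n = 5 per group, SD), with overlap of the groups and a difference of 0.50 log2 (95% interval -0.26 to 1.26; limma, adjusted p = 0.437). Il2rb, which completes the receptors for IL-2 and IL-15, lay below the level filter. Its chosen probe set read 5.04 and 6.04 in KO tumours 2 and 6, 6.18 and 6.43 in tumours 9 and 11 and 6.57 in tumour 7, against 4.42 to 5.59 in WT tumours. KO tumour 2 thus lay among the WT tumours, and the difference of 1.09 ± 0.31 (SE) did not pass (limma without a filter, adjusted p = 0.0689). Its other probe set, singled out after the values were seen, had no such overlap, at 5.39 to 6.18 in KO and 4.47 to 4.84 in WT tumours, with a difference of 1.26 ± 0.17 (SE; limma over all probe sets, adjusted p = 0.00239). Il2ra, the chain that raises the affinity for IL-2, read 5.59 to 6.24 in KO and 4.41 to 5.90 in WT tumours (difference 0.78, adjusted p = 0.160 without a filter). Il2, at 4.55 ± 0.16 and 4.51 ± 0.15, differed by 0.04 log2 (95% interval -0.21 to 0.28).

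Il18r1 encodes the ligand-binding chain of the IL-18 receptor, carried by T and NK cells. Its signal was 7.11 and 7.34 in KO tumours 2 and 6, 7.02 and 6.75 in tumours 9 and 11 and 7.87 in tumour 7. In WT tumours 1, 3, 12 and 13 it was 5.79, 5.15, 6.57 and 5.48, and 6.21 in WT tumour 8. The groups did not overlap, although WT tumour 12 came within 0.2 log2 of KO tumour 11. Il18r1 rose by 1.37 ± 0.30 log2 (SE), a 2.59-fold change (7.22 ± 0.42 against 5.84 ± 0.57, SD, n = 5 per group; limma, adjusted p = 0.0216). The call was lost without KO tumour 6 (1.34, adjusted p = 0.0658), without WT tumour 1 (1.36, 0.0548), without mouse 02 (1.37, 0.0821), without mouse 72 (1.04, 0.261), over mouse means (1.35, 0.0928) and among the low numbers (2.04, 0.262). Among the high numbers it held (1.27, 0.0473).

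Il18bp encodes a secreted protein that binds IL-18 and keeps it from its receptor. Its KO tumours were spread, with 6.91 and 7.77 in tumours 2 and 6, 8.44 and 8.42 in tumours 9 and 11 and 8.40 in tumour 7. The WT tumours were close together, at 6.68, 6.96, 6.85 and 6.72 in tumours 1, 3, 12 and 13 and 6.96 in tumour 8. The rise was carried by 4 of the 5 KO tumours, since tumour 2 lay within the WT range. The means were 7.99 ± 0.66 and 6.83 ± 0.13 (SD, n = 5 per group), a difference of 1.16 ± 0.28 log2 (SE) and a 2.23-fold change (limma, adjusted p = 0.0343). The call held without KO tumour 2 or WT tumour 3 and was lost in the other 8 fits that leave out a tumour (differences 1.04 to 1.42 over the 10 fits, adjusted p up to 0.0779). It was also lost without mouse 04 (0.86, adjusted p = 0.134) or mouse 72 (1.04, 0.446), over mouse means (1.18, 0.159), among the low numbers (1.54, 0.0626) and among the high ones (1.21, 0.333).

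Neither the cytokine nor the second receptor chain of the IL-18 system passed. Il18 read 8.92 and 10.75 in KO tumours 2 and 6, which share a mouse, 10.10 and 10.23 in tumours 9 and 11 and 9.38 in tumour 7. The WT tumours spanned 8.24 to 10.45, so the groups overlapped, and the difference was 0.61 log2 (95% interval -0.42 to 1.63; limma, adjusted p = 0.486). Il18rap, the signalling partner of Il18r1, was at 6.64 ± 0.30 in KO and 6.32 ± 0.45 in WT tumours (n = 5 per group, SD; difference 0.32, 95% interval -0.20 to 0.84, adjusted p = 0.466). Whether Il18r1 differed more than Il18rap was not tested.

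**Figure D2:**
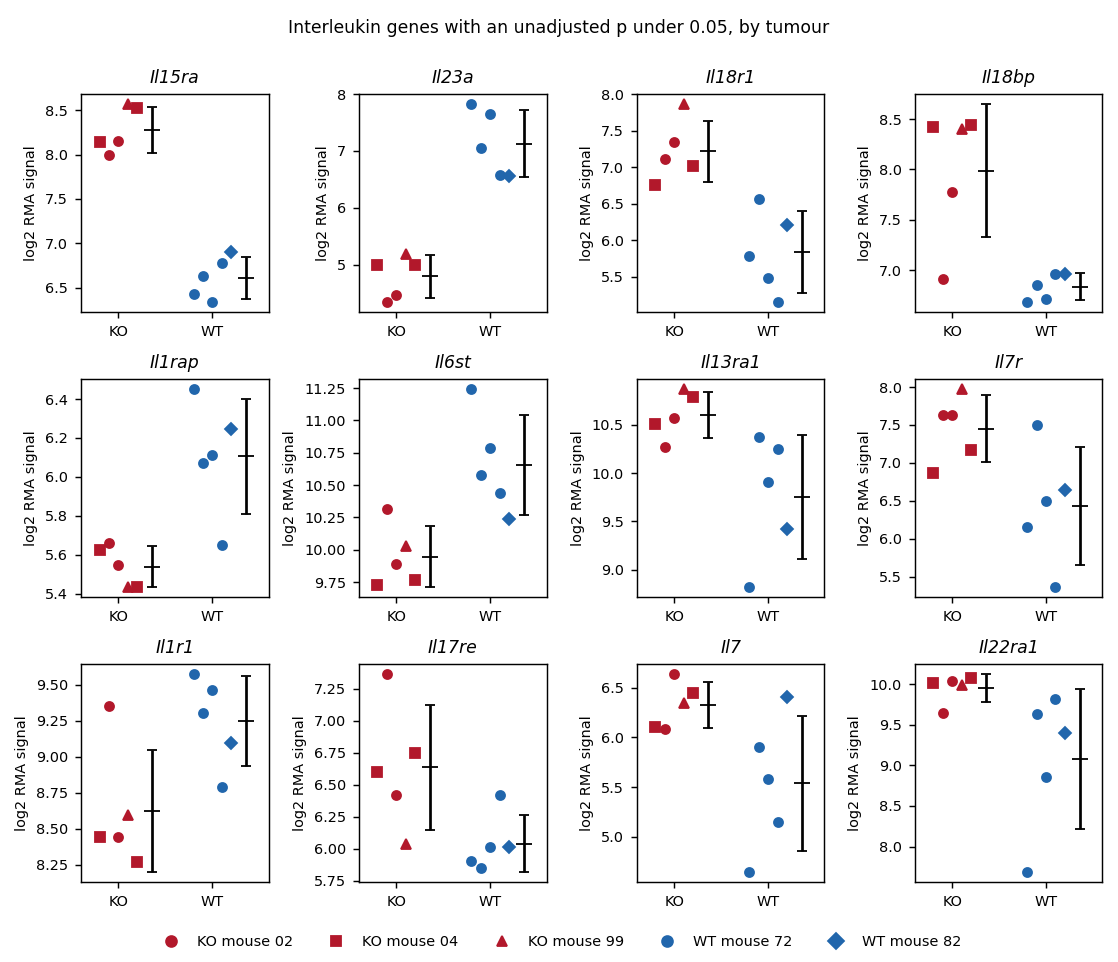
Log2 RMA signal of the 12 tested interleukin genes with an unadjusted p under 0.05, by tumour, KO in red and WT in blue, with marker shapes for mice and black bars for the mean and SD of 5 tumours. Il15ra, Il23a and Il18r1 show no overlap of the groups, and in Il18bp KO tumour 2 lies at 6.91, among the WT tumours.

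Il1rap encodes the accessory chain that the IL-1, IL-33 and IL-36 receptors need in order to signal. It read 5.66 and 5.54 in KO tumours 2 and 6, 5.43 and 5.62 in tumours 9 and 11, and 5.43 in tumour 7. It read 6.45, 5.65, 6.07 and 6.11 in WT tumours 1, 3, 12 and 13, and 6.25 in tumour 8. WT tumour 3 lay within the KO range and the other WT tumours above it. Il1rap fell by 0.57 ± 0.15 log2 (SE), a 1.49-fold change (5.54 ± 0.10 against 6.11 ± 0.30, SD, n = 5 per group; limma, adjusted p = 0.0445). Its mean over all tumours, 5.823, only just reached the level filter and its KO mean lies under it, so the fold is not exact. Among the fits without a tumour, the call held only without WT tumour 3, the other 9 giving adjusted p-values up to 0.108. It was lost over mouse means (-0.64, 0.0728), without any of the mice 02, 04 and 72 (-0.62, -0.56 and -0.71, adjusted p = 0.110, 0.114 and 0.118) and among the low numbers (-0.58, 0.519). Among the high numbers it held (-0.89, 0.0463).

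Il1r1, the signalling receptor for IL-1, had a difference of -0.62 log2 (8.62 ± 0.42 against 9.25 ± 0.31, SD, n = 5 per group) that did not pass (limma, adjusted p = 0.139). KO tumour 2, at 9.35, lay among the WT tumours (8.79 to 9.58), and without it the difference was -0.80 and passed (adjusted p = 0.0242). The second probe set of Il1r1, below the level filter, had a difference of 0.11. Il1r2, a decoy receptor that takes up IL-1 without signalling, ranged from 5.38 to 7.01 in KO and from 5.38 to 6.73 in WT tumours (adjusted p = 0.724). Il1rl2, the IL-36 receptor, lay below the filter at 5.47 ± 0.32 and 6.10 ± 1.08, its WT tumours running from 4.30 to 7.08. Its second probe set, also below the filter, ran from 4.62 to 5.21 in KO and from 5.20 to 5.81 in WT tumours. The difference there was -0.53 ± 0.15 (SE; limma over all probe sets, adjusted p = 0.0760). Of the IL-36 ligands, Il1f9 (IL-36 gamma) read 5.90 ± 0.79 in KO and 4.93 ± 0.51 in WT tumours, with a difference of 0.98 (adjusted p = 0.185 without a filter). Il1f6 and Il1f8 (IL-36 alpha and beta) had differences of 0.26 and 0.05. Il1a was at 4.36 in both groups, and Il33, an alarm cytokine released by damaged cells, was at 7.93 ± 0.55 and 8.25 ± 0.98 (difference -0.28, adjusted p = 0.769).

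RefSeq promoter windows, from 250 bases before to 50 after an annotated start (mouse build GRCm38.p6), are shown for Il15ra, Il18r1 and Il1rap, because these are the receptor genes that changed. Windows were at hand for 53 of the 69 members, and Il23a was not among them. Patterns known to be bound by factors downstream of cytokines or of Wnt were searched on both strands: TTCNNNGAA (STAT proteins), CTTTGAT (TCF and LEF), the interferon-stimulated response element, the joint site of Ets and interferon regulatory factors, and the kappaB site. Matches are in capitals. The window of Il18r1 is at chr1:40465756-40466055, plus strand, that of Il1rap at chr16:26581455-26581754, plus strand, and that of Il15ra at chr2:11705462-11705761, plus strand.
Il18r1: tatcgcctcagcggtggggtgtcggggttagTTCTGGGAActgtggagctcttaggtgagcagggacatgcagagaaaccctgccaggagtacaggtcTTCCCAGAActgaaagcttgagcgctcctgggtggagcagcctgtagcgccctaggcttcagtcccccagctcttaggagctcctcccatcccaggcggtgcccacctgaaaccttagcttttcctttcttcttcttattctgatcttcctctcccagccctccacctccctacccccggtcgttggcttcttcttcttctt
Il1rap: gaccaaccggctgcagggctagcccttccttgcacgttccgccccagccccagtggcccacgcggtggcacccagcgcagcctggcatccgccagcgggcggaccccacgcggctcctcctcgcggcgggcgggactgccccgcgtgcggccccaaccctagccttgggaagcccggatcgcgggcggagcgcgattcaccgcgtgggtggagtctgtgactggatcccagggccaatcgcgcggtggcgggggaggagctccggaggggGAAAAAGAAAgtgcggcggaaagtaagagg
Il15ra: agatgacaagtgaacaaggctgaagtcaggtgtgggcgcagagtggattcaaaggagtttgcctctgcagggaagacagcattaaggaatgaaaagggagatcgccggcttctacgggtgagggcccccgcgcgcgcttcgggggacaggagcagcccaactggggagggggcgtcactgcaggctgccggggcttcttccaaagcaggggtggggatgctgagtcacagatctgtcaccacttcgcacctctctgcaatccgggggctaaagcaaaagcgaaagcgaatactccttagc
Of the 3 windows of Il18r1, the first and second hold none of the 5 patterns, and the third, shown here, holds the letters TTCNNNGAA at 2 places that do not overlap, beginning at positions -219 and -152 from the start. That pattern reads the same on both strands and occurs in 8.3% of 32851 windows of 300 bases, and in 10 of the 63 windows of members. The window of Il1rap holds the interferon-stimulated response element, on the minus strand, within the 50 bases after the start, a pattern found in 3.44% of all windows. None of the 5 patterns had an exact match in this window of Il15ra, in its other window or in that of Il18bp. Sites that depart from these letters were not searched for. These matches are descriptions of letters, and binding was not measured.

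Among the receptor chains for IL-7, IL-4 and IL-13, Il7r, Il13ra1 and Il4ra had higher means in KO tumours without passing. Il7r, the receptor by which lymphocytes receive IL-7, ran from 6.86 to 7.98 in KO and from 5.36 to 7.50 in WT tumours, a difference of 1.02 log2 (limma, adjusted p = 0.138). WT tumour 12, at 7.50, lay among the KO tumours, and without it the difference was 1.28 (adjusted p = 0.0336). Il7, a cytokine made by epithelium and stroma, ran from 6.09 to 6.64 in KO and from 4.64 to 6.41 in WT tumours (difference 0.76, adjusted p = 0.169). The high WT reading was tumour 8, without which the difference was 1.01 (adjusted p = 0.0488), and without mouse 72, which leaves that tumour alone, it was -0.08 (0.936). The second probe set of Il7r, below the filter, had a difference of 0.20.

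Il13ra1, a chain of the IL-13 receptor and of the receptor by which non-lymphoid cells sense IL-4, read 10.27 to 10.87 in KO and 8.82 to 10.37 in WT tumours (difference 0.86, adjusted p = 0.110). WT tumour 1 was the lowest. The difference was 1.35 with the 2 blocks of numbers as a covariate (adjusted p = 0.0214) and 1.72 among the high numbers (0.0166). Il4ra, its partner, differed by 0.45 (adjusted p = 0.358), and the decoy Il13ra2 by -0.17 (0.794). The ligand genes Il4 and Il13 lay below the filter at 3.63 ± 0.08 against 3.74 ± 0.13 and 3.66 ± 0.11 against 3.80 ± 0.14 (SD, n = 5 per group). Il21r differed by 0.18, and its ligand gene Il21 by 0.06.

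Il6st encodes gp130. It read 10.31 and 9.89 in KO tumours 2 and 6, 9.77 and 9.73 in tumours 9 and 11 and 10.03 in tumour 7, against 11.25, 10.44, 10.57 and 10.79 in WT tumours 1, 3, 12 and 13 and 10.24 in WT tumour 8. Only KO tumour 2 and WT tumour 8 crossed. The difference of -0.70 ± 0.20 log2 (SE) fell short of the threshold (limma, adjusted p = 0.0630), and it passed without KO tumour 2 (-0.79, 0.0439) or WT tumour 8 (-0.82, 0.0389). It also passed without the mouse block (-0.71, 0.0417), with the mean of all its probe sets (-0.71, 0.0482), after cyclic loess (-0.72, 0.0496) and among the high numbers (-1.32, 0.0498). The 3 other probe sets of Il6st had differences of -0.72, -0.78 and -0.63. Without mouse 72 the difference was -0.29 (adjusted p = 0.663). Il6ra, which binds IL-6, was at 6.92 ± 0.23 in KO and 7.20 ± 0.59 in WT tumours (adjusted p = 0.532), and Il27ra, the gp130 partner for IL-27, differed by 0.12 below the filter.

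In the IL-10 group, Il22ra1, the chain by which epithelium receives IL-22, was close to even among KO tumours, at 9.65 to 10.07, and ran from 7.68 in WT tumour 1 to 9.82 in WT tumour 3. Its difference of 0.86 did not pass (limma, adjusted p = 0.202). Among the high numbers, where WT tumour 1 is the only WT tumour, the difference was 2.26. WT tumour 1 also had the lowest mean of the epithelial markers, 10.92, and the part of these cells was not tested. Il10rb, the chain shared by the receptors for IL-10 and IL-22, differed by 0.14 (95% interval -0.18 to 0.45) and Il10ra by 0.17 (-0.10 to 0.45). Il10 lay at 3.20 ± 0.19 and 2.91 ± 0.22 (SD, n = 5 per group), and Il20ra and Il20rb had differences of -0.12 and -0.26, all 3 below the filter.

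All 5 IL-17 receptor genes on the array were tested and none passed, with 1 at an unadjusted p under 0.05. That was Il17re, a chain of the epithelial receptor for IL-17C, which ran from 6.04 to 7.37 in KO and from 5.85 to 6.42 in WT tumours (difference 0.59, adjusted p = 0.163). Its KO tumours 2 and 9 were the highest. Among the low numbers the difference was -0.04. Il17ra, shared by the receptors of this family, differed by 0.20 (95% interval -0.05 to 0.44), Il17rb, the receptor for IL-25, by 0.30, Il17rc by 0.10 and Il17rd, which also restrains fibroblast growth factor signalling, by -0.11.

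Of the ligands not yet given, Il16, a chemoattractant for CD4 cells, had a difference of 0.34 (95% interval -0.05 to 0.73; limma, adjusted p = 0.290). A second probe set above the filter differed by 0.40 ± 0.10 (SE; adjusted p = 0.0430 over all probe sets), and 2 below the filter by 0.19 and -0.10. Il3, a growth factor for mast cells and basophils, lay below the filter with all KO tumours (3.82 to 3.97) above all WT tumours (3.50 to 3.79), the only 1 of the 40 members there without overlap (2.5%), beside 4.36% of all genes below the filter. Il17b differed by -0.21 (unadjusted p = 0.0476). The ligands below the filter that have not been named had differences between -0.15 (Il1f10) and 0.19 (Il34). Il22ra2, a soluble trap for IL-22, read 3.66 ± 0.31 and 3.85 ± 0.10 and differed by -0.19. Il4i1, an amino acid oxidase gene, and Il1bos had differences of -0.20 and 0.14.

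Of the 69 members, 26 had several probe sets. When all 45101 probe sets were fitted together, 10 of the 109 probe sets of members passed (limma, adjusted p under 0.05), beside 4.35% of all probe sets. They belonged to Il15ra (both), Il18r1, Il18bp, Il23a, Il1rap, Il2rb, Il7, Il13ra1 and Il16. For Il1rap the probe set used above gave an adjusted p of 0.0532 in this fit, while another, below the filter, differed by -0.87 (0.0443). For Il7 it was the second probe set that passed (0.94, 0.0418), and for Il13ra1 1 of 4 others (1.19, 0.0243).

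**Figure D3:**
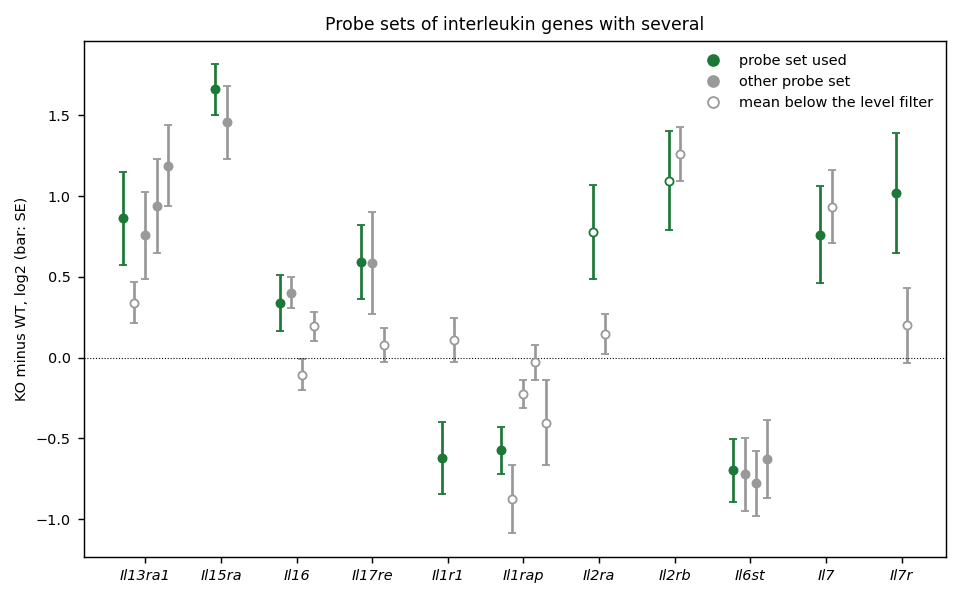
KO minus WT difference on the log2 scale, with its SE, for each probe set of 11 interleukin genes that have several. Green marks the probe set used for the gene, grey the others, and open circles those below the level filter; the probe sets of Il15ra and Il2rb lie above 1 and those of Il6st between -0.78 and -0.63.

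Genes that work beside interleukins and their receptors were compared as a list of 37 on the array, of which 32 were tested. Of these 5 rose (15.6%), beside 4.16% of all genes tested, and none fell, with 1, the adaptor gene Traf6, lower at an unadjusted p under 0.05. The list was chosen with earlier results of these data known, so its share is a description and not a test. In the group that matures IL-18 and IL-1, Casp1, the protease that cleaves both cytokines, ran from 10.57 to 11.56 in KO and from 8.65 to 10.17 in WT tumours, a difference of 1.496 ± 0.31 log2 (SE) and no overlap (limma, adjusted p = 0.0166). Casp4, its relative that senses bacterial lipopolysaccharide, rose by 1.18 (adjusted p = 0.0459) and the DNA sensor gene Aim2 by 0.44 (0.0399). Pycard, the adaptor of the inflammasome, differed by 0.59 and Gsdmd, the pore protein through which the cytokines leave the cell, by 0.56, and neither passed (adjusted p = 0.487 and 0.344).

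Myd88, the adaptor of the IL-1 and IL-18 receptors, rose by 0.97 (8.23 ± 0.25 against 7.28 ± 0.48, SD, n = 5 per group; limma, adjusted p = 0.0342). Traf6 and Tollip, which act downstream of Myd88 and on its kinases, had differences of -0.29 and -0.27 (adjusted p = 0.135 and 0.223). Lif, a ligand that signals through gp130, rose by 1.10 (7.78 ± 0.60 against 6.66 ± 0.21, adjusted p = 0.0339), while its receptor gene Lifr had a difference of -0.49 (0.481). Crlf2, the receptor for thymic stromal lymphopoietin, differed by 0.42 (0.140). Of the 4 kinase genes none passed and 1 had an unadjusted p under 0.05, Jak2, with a difference of 0.35 (0.158). Of 5 feedback inhibitor genes tested none passed and 1 had an unadjusted p under 0.05, the RNase gene Zc3h12a, at 0.53 (0.176). Casp1 kept its call without any single tumour, and Myd88, Casp4, Aim2 and Lif lost theirs in 6, 7, 6 and 5 of the 10 fits without a tumour. None of the 5 passed over mouse means, where 8 of the 32 had an unadjusted p under 0.05, or without mouse 04 or mouse 72.

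The cell marker lists were chosen with earlier results of these data known, and of all genes tested 4.16% rose. Of 12 T and NK cell markers, 8 were tested and 6 rose (limma). The mean over the 12 was 6.14 and 6.50 in KO tumours 2 and 6, 6.95 in tumours 9 and 11 and 6.98 in tumour 7, against 5.02 to 5.48 in WT tumours. Of 7 B and plasma cell markers, 4 were tested and all 4 rose, with list means of 6.78 to 7.15 in KO and 5.19 to 5.81 in WT tumours. The lowest markers of these lists were Klrd1, with a mean of 4.13, and Ms4a1, with 3.58, and on this scale no gene reads 0. Of 12 macrophage and dendritic cell markers, 8 were tested and 1, Cd14, rose, the list means being 7.51 to 7.68 and 6.87 to 7.59. KO tumour 2, the KO tumour with the lowest T and NK marker mean, was also the lowest KO tumour for Il15ra, Il18bp and Il2rb. Among KO tumours the order of Il18r1 and Il7r was another, with tumours 9 and 11 lowest in both. The part of these cells in the differences was not tested.

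**Figure D4:**
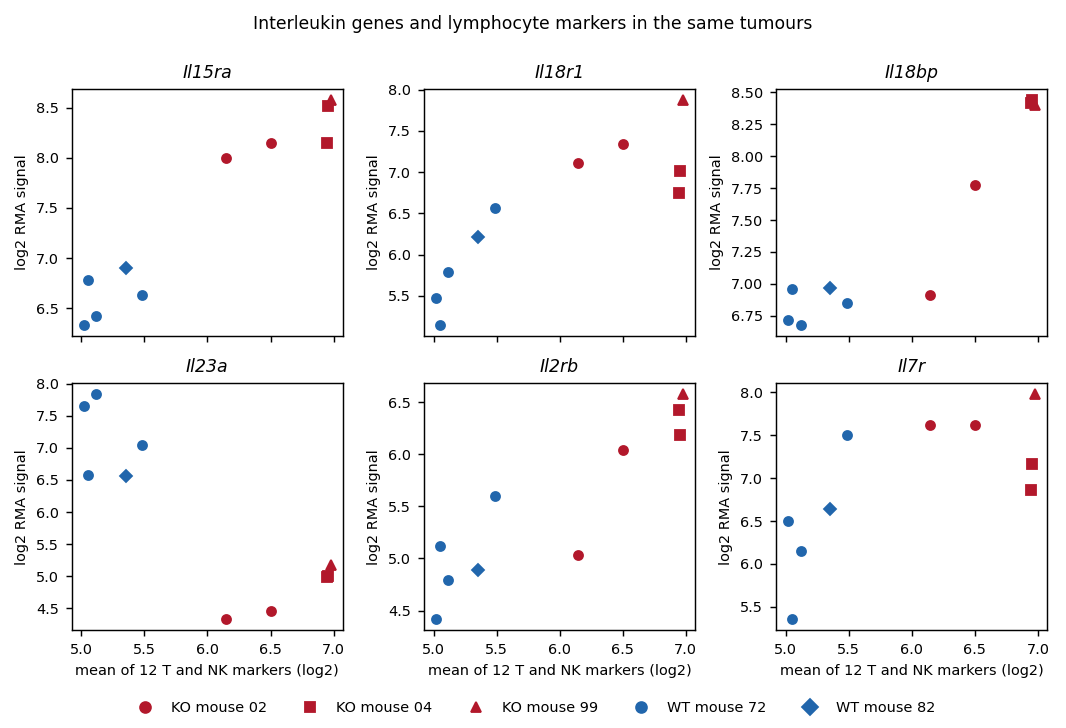
Log2 RMA signal of 6 interleukin genes against the mean of 12 T and NK cell markers in the same tumour, KO in red and WT in blue, with marker shapes for mice. The marker means run from 6.14 to 6.98 in KO and from 5.02 to 5.48 in WT tumours; Il23a is lower in every KO tumour than in every WT tumour and the other genes are mostly higher.

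None of the 5 mast cell, 3 neutrophil, 1 tuft cell, 8 fibroblast, 6 endothelial or 10 epithelial markers tested passed (limma). At an unadjusted p under 0.05 there were 3 mast cell, 1 neutrophil, 1 fibroblast, 1 endothelial and 2 epithelial markers and no tuft cell marker, beside 22.4% of all genes tested. Of the mast cell markers, Ms4a2 (-2.06) and Tpsb2 (-0.78) were lower in KO tumours and Kit (1.48) was higher. Csf3r of neutrophils (0.67) and the epithelial Vil1 (0.69) and Cdh1 (0.34) were higher. Dcn of fibroblasts (-0.74) and Vwf of endothelium (-0.89) were lower. The list mean of neutrophil markers ran from 6.11 to 7.10 in KO and from 5.69 to 7.27 in WT tumours, and that of fibroblast markers from 8.91 to 10.03 and from 8.85 to 10.05. KO tumour 2, where Il1r1 was high at 9.35, had the highest fibroblast, endothelial and mast cell means of the KO tumours, 10.03, 7.78 and 7.62. The part of these cells was not tested. The gap between 3' and 5' control probes, which reflects RNA integrity and amplification, was 0.71 to 1.17 log2 in KO and 0.78 to 1.14 in WT tumours (permutation of tumours without regard to mouse, two-sided p = 0.381). With it as a covariate Il15ra, Il23a and Il18bp kept their calls, and Il18r1 (1.38, limma, adjusted p = 0.0523) and Il1rap (-0.52, 0.101) did not.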

How the data were processed

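From each of 10 dissected tumours, 30 ng of RNA was amplified and hybridised to an Affymetrix mouse array, per the labels. The log2 values deposited by the authors had been summarised by RMA, per the submitters' processing notes (version not given in the sources used here). Of 45101 probe sets, 34945 had 1 gene symbol, 932 several and 9160 none. Symbols were updated by Entrez identifier for 34741 (GRCm38.p6), which renamed no member. The members and lists were chosen with earlier results of these data known. The comparison used limma 3.58.1 in R 4.3.3, treating mice as random blocks through statmod 1.5.0 (consensus correlation 0.0586), over 12250 genes at or above the 40th percentile of probe set means, with Benjamini-Hochberg adjustment. Differences are those of the fit and can depart slightly from differences of means. The fit was checked on simulated data. Members past the threshold, or with an unadjusted p under 0.05, were described with their known partners, and of pathway genes those past the threshold with a few others. The 5 motifs were chosen after the values were seen. Alternatives were no block, mouse means, the number range as a covariate or alone, other filters, probe set rules and normalisations, eBayes with trend, the 3' to 5' covariate, a fold of at least 2, and each tumour or mouse left out. Precision is limited by how few arrays and mice there were. 3 probe sets shared by an interleukin and another symbol were left out of the comparison.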

Additional observations from a re-analysis of the deposited data

Results flagged for a closer look

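In 6 of 138 groups of 5 tumours (69 genes in KO and in WT), the highest or lowest tumour stood apart from the others by Dixon's criterion, and chance alone gives about 5% of groups. Il22ra1 was at 9.65 in KO tumour 2 and at 9.996 to 10.07 in the other KO tumours. Il17rd was at 6.89 in KO tumour 7, against 7.75 to 8.06. Il6ra was at 8.23 in WT tumour 8, against 6.82 to 7.09. The other 3 genes lay below the level filter. Il4 was at 3.97 in WT tumour 8, against 3.66 to 3.72, Il31ra at 4.61 in WT tumour 1, against 4.90 to 4.997, and Il1rapl2 at 2.58 in WT tumour 13, against 2.78 to 2.84.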

How the results depend on the processing

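The fall of Il23a and the rise of Il15ra were called in 23 of 25 and 24 of 26 alternatives, the exceptions being the lower number range alone and the fit without mouse 72. Il18r1, Il18bp and Il1rap were called in 18 of 25, 13 of 26 and 8 of 24. All 5 kept their direction in every alternative that gave a value. With main counts of 1 ligand, 3 receptors and 5 pathway genes called, the counts were 1, 1 and 0 over mouse means (limma, 8 pathway genes at an unadjusted p under 0.05), 0, 0 and 0 within numbers 191 to 229 (2, 2 and 5 unadjusted), 2, 6 and 2 within numbers 254 to 258, 0, 1 and 5 with the filter at the 60th percentile (which removes Il23a, with 0 ligands unadjusted), 1, 1 and 1 with the 3' to 5' covariate, 1, 1 and 3 without mouse 02, 1, 2 and 0 without mouse 04 (7 pathway genes unadjusted), 0, 0 and 0 without mouse 72 (1, 6 and 4 unadjusted), and 1, 2 and 3 with a fold of at least 2. Without single tumours they ranged from 1 to 2, 1 to 4 and 1 to 4. Differences that reversed were Il17re within numbers 191 to 229 (-0.036) and Il7 without mouse 72 (-0.0808), neither called in the main comparison, and the cause was not tested. No paired analysis was possible because KO and WT tumours came from different mice and share no tumour number.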
